A study of Homo sapiens with 9 samples.

Results

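The promoters of the nuclear genes that encode the oxidative phosphorylation machinery were examined for binding of Yin Yang 1 (YY1) in a cell model of Huntington's disease. Members were the YY1 peaks whose listed gene carries an NDUF, UQCR, COX, ATP5 or SDH symbol, or is CYC1 or CYCS, and whose edge lies within 2 kb of that gene's transcription start site (TSS). This rule used no measured value and gave 90 peaks of 85 genes among 15384 promoter peaks and 23002 peaks in all. The members comprised 26 peaks of complex I, 2 of complex II, 6 of complex III, 12 of complex IV, 17 of complex V, 1 at the cytochrome c gene CYCS, 17 of assembly factors and 9 whose listed gene is a pseudogene, an antisense or divergent transcript, or a readthrough transcript.

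SK-N-MC, an established human line labelled as neuroblastoma and as wild type, was transfected with plasmids for huntingtin residues 1 to 550. The tract held 23 glutamines in HttQ23 and 89 in the mutant, HttQ89. Both groups overexpressed a huntingtin fragment, so no group of untransfected cells enters the comparison, and no time after transfection is given for these libraries in the labels. Each group held 3 YY1 libraries labelled as biological replicates, and the 3 input libraries are not used here. The study reports that SK-N-MC is registered as a misidentified line, a sarcoma in place of a neuroblastoma. It adds that its own stock came from another supplier, which gives a neurogenic origin. Chromatin immunoprecipitation does not measure expression, so the labelled cell type was not checked against marker genes. The study describes the replicates of this assay as independent.

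The respiratory chain passes electrons from NADH through complex I, or from succinate through complex II, to ubiquinone, then through complex III and cytochrome c to complex IV, where oxygen is reduced. Complexes I, III and IV pump protons, and complex V, the ATP synthase, uses the gradient to make ATP. Most subunits and all assembly factors are encoded in the nucleus, and YY1, the nuclear respiratory factor NRF1 and ETS family factors such as GABP are known regulators of these promoters.

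The 401-bp sequences under the peaks were searched on both strands for the YY1 core ATGGCG, for its longer form AAGATGGCG, which contains the core, and for the NRF1 core GCGCATGCG and the ETS core CCGGAAG. For each complex a promoter with a YY1 core is shown, with the top 2 of complex I and the top 2 of the assembly factors, so that the match can be read in its setting. SDHB, of middling strength, is the only complex II member with a core. Each line gives 30 bases of GRCh38, 5′ to 3′ on the strand of the match, with the core in capitals.
NDUFS6 (complex I) at chr5:1801406-1801435, plus strand: cagcggcgcaaaATGGCGgcggcgatgacc
NDUFS7 (complex I) at chr19:1383915-1383944, plus strand: gccgaggccaagATGGCGgtgctgtcaggt
SDHB (complex II) at chr1:17054002-17054031, minus strand: tcaggagccaagATGGCGgcggtggtcgcc
UQCRC1 (complex III) at chr3:48609603-48609632, minus strand: tgcagctggaagATGGCGgcgtccgtggtc
COX5A (complex IV) at chr15:74938010-74938039, plus strand: agcatgacggcgATGGCGgcgcgcgggctg
ATP5F1A (complex V) at chr18:46098047-46098076, plus strand: cacgggtgcaagATGGCGgcattcgccaca
NDUFAF8 (assembly factor) at chr17:81239318-81239347, plus strand: gacggacctaagATGGCGgcctccaggggg
COX20 (assembly factor) at chr1:244835569-244835598, plus strand: acattccctaaaATGGCGgccggcgcgtcg

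In NDUFS6, NDUFS7, SDHB and UQCRC1 the ATG of the printed core is an annotated start codon, so the same letters begin the coding sequence. In COX5A, ATP5F1A, NDUFAF8 and COX20 it is not. COX20 held a second core further upstream of its TSS.

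The YY1 core lay under 36 of the 90 member peaks, or 40% (exact binomial 95% interval 29.8 to 50.9), against 27.0% of all promoter peaks. The longer form lay under 11 member peaks (12.2%, interval 6.26 to 20.8) against 4.22% of promoter peaks. By complex, the core was found in 15 of 26 peaks of complex I, 1 of 2 of complex II, 4 of 6 of complex III, 2 of 12 of complex IV, 5 of 17 of complex V and 6 of 17 peaks of assembly factors. Complex I, which has the most peaks, held the most matches. By share complex III (66.7%) lay above complex I (57.7%), and complex IV was low (16.7%). The 4 complex IV peaks of tissue isoforms and paralogues held 0 cores. Intervals cover counting error only, and no test was run of a difference between complexes.

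Members with the core had it at an annotated start codon in 19 of 36 peaks, or 52.8% (interval 35.5 to 69.6), against 26.6% of the 4155 promoter peaks with a core. Of these 19 peaks, 12 belonged to complex I, among them those of NDUFS3, NDUFA7, NDUFAB1, NDUFB11, NDUFA2 and NDUFS4, and 3 belonged to complex III (CYC1, UQCRC1 and UQCR10). None belonged to the peaks listed under complex V genes. Among these, ATP5F1A and ATP5F1B, which encode the alpha and beta subunits of the catalytic head, had a core elsewhere in the peak. The peak listed under the readthrough transcript ATP5MF-PTCD1 had a core at a start codon, and it holds the start of the complex V gene ATP5MF. A start codon lay in 56.7% of member peaks and 35.0% of promoter peaks. Among peaks that did cover one, the core stood there in 37.3% of members and 20.5% of promoter peaks.

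Most cores lay just inside the transcribed region. Of the 39 matches in member peaks 71.8% lay downstream of the TSS of the listed transcript, against 69.8% of matches in promoter peaks, with a median distance of 23 bp against 38 bp. Of the matches within 400 bp of the TSS, 44.4% fell in the first 50 bp downstream in members and 26.3% in all promoter peaks. The match lay on the strand of the listed gene for 71.8% of member matches and 56.4% of promoter matches. A core at the start codon of the listed gene lies on that strand by definition. The strand shares are thus not separate from the start codon shares above.

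**Figure D1:**
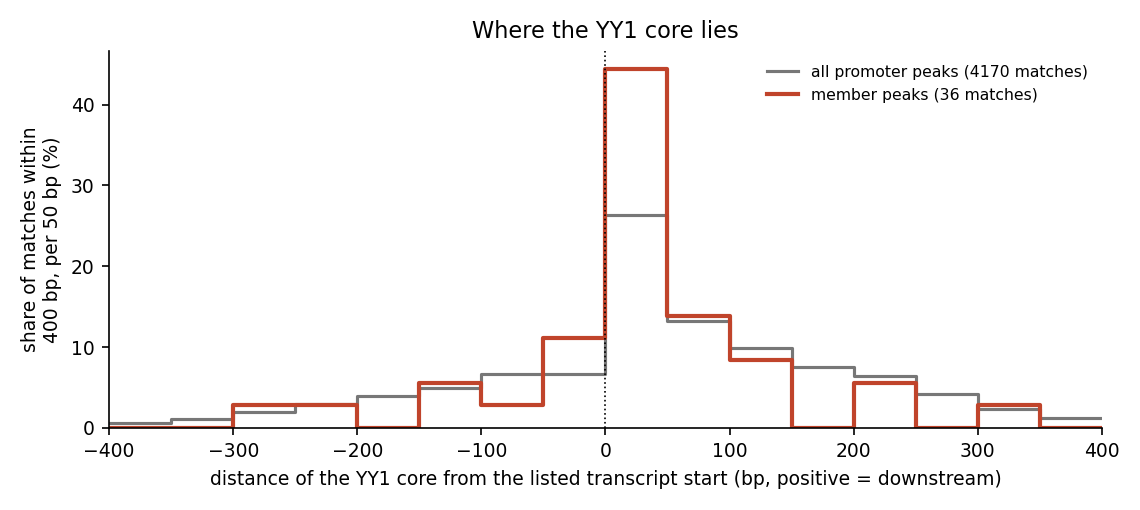
Share of YY1 core matches (percent, per 50 bp) against the distance in bp of the core from the listed TSS, for matches within 400 bp, in member peaks (red) and in all promoter peaks (grey). In members, 44.4% of these matches fell in the first 50 bp downstream of the TSS, against 26.3% in all promoter peaks.

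The NRF1 core was found in 11 member peaks (12.2%, interval 6.26 to 20.8) and in 2.21% of all promoter peaks. These peaks belonged to NDUFS6, NDUFS7, NDUFS8 and NDUFA8 of complex I, COX6A2 of complex IV, ATP5ME, ATP5MC2 and ATP5F1C of complex V, and the assembly factors COX18 and NDUFAF6, the latter with 2 peaks. The ETS core was found in 18 member peaks (20%, interval 12.3 to 29.8), nearer to the 14.5% of all promoter peaks. NDUFS6 and NDUFS7, the strongest subunit promoters among the members, held both the YY1 and the NRF1 core, and the NRF1 match is shown in the same way.
NDUFS6 at chr5:1801351-1801380, plus strand: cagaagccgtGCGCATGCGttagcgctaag
NDUFS7 at chr19:1383822-1383851, minus strand: gcggctcggaGCGCATGCGgaaaccggaac

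In NDUFS6 the NRF1 match lay upstream of the TSS and the YY1 core downstream of it. The median GC content was 65.3% in member peaks and 71.3% in all promoter peaks. Its part in the motif shares was not tested.

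YY1 peaks lay at nearly every known nuclear gene of the 5 complexes. A peak within 2 kb of a coding transcript start was present for 36 of 37 genes of complex I, all 4 of complex II, all 9 of complex III, 10 of 11 of complex IV, all 18 of complex V, CYCS and all 21 assembly factors listed. NDUFS5, an accessory subunit of complex I, and COX7A2, an accessory subunit of complex IV, had none. Together 97.4% of the 78 subunit genes had such a peak, against 68.3% of the 19663 protein-coding genes. Of 8 tissue isoforms and paralogues, 4 had a peak.

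Part of this coverage came from peaks that the deposited table lists under a neighbouring gene, which the member rule leaves out. Chosen after their values were seen, the strongest was the peak listed under LRRC41, with its edge 220 bp from a start of UQCRH, the hinge protein of complex III (mean of the 6 libraries 1068 normalised reads). It was stronger than every member peak. It was followed by the peak listed under CPSF7 near the complex II assembly factor SDHAF2 (382 normalised reads), that under KCTD2 near ATP5PD, a peripheral stalk subunit (373), and that under ADAP1 near the complex IV assembly factor COX19 (272). The start of NDUFV2, a core subunit of complex I, lay in a peak listed under ANKRD12 (237), that of SDHA, the flavoprotein of complex II, in one listed under CCDC127 (122), and that of COX4I1, the common form of COX4, in one listed under EMC8 (132). Among the members, 11 peaks (12.2%) held the starts of at least 2 coding genes, against 4.36% of promoter peaks. This count includes readthrough genes, as at NDUFC2, and gene models without a symbol, as at COX6A1. Where distinct genes start in the same peak, the signal cannot be assigned to one gene. NDUFS6 shared its peak with MRPL36, and NDUFB5 shared one with MRPL47, both genes of the mitochondrial ribosome.

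Values are reads per peak scaled to sequencing depth, called normalised reads here, and since all peaks but 1 have the same length they can be set side by side. Ranks and strengths are given among the members, so peaks listed under a neighbouring gene do not enter them. The median member peak was close to the middle of all promoter peaks, at percentile 49.8 of the mean over the 6 libraries. By complex the levels ranged widely, which is given as a description with no test. The median percentile was 76.8 for complex I, 68.8 for complex II and 49.5 for complex III. It was 14.3 for complex IV, 35.3 for complex V and 40.8 for assembly factors. Complex IV included 4 peaks of tissue isoforms and paralogues, with a median percentile of 9.35. Its other peaks ranged from percentile 1.98 at COX6B1 to 96.4 at COX8A. Members with a YY1 core had a median percentile of 79.8 and those without one 31.5, while for all promoter peaks these values were 62.3 and 46.7. Of the 20 strongest member peaks 16 held the core (80.0%), against 20 of the other 70 (28.6%). The direction was the same for promoter peaks at large, at a narrower cut. There the 1539 strongest of 15384 held it in 59.6% and the rest in 23.4%.

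The place of the core went with strength in all promoter peaks. Those with a core at a start codon had a median percentile of 77.8, those with a core elsewhere 55.6, and those with none 46.7. In members a core at a start codon and a core elsewhere went with similar medians, 80.3 and 79.2.

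**Figure D2:**
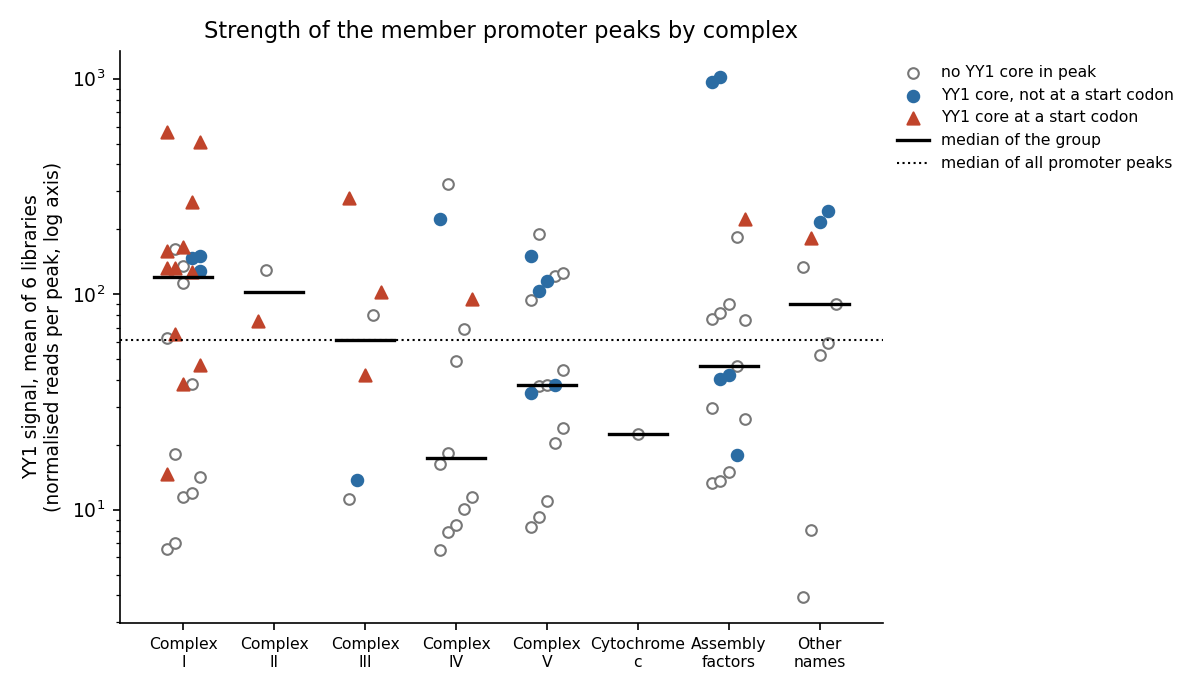
Mean YY1 signal over the 6 libraries (normalised reads per peak, log axis) of each of the 90 member peaks by complex. Red triangles hold the YY1 core at an annotated start codon, blue points hold it elsewhere, and open points hold none. Black bars are group medians and the dotted line is the median of all promoter peaks. The triangles cluster in complex I, and most complex IV peaks are open points under the dotted line.

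The 2 strongest members were assembly factors. NDUFAF8, needed to assemble complex I, ranked 44 among promoter peaks, with 1270, 700 and 1516 normalised reads in the HttQ23 libraries, in the order of their replicate numbers, and 764, 521 and 1358 in the HttQ89 libraries (1162 ± 419 and 881 ± 430, mean ± SD, n = 3). COX20, which helps to mature the COX2 subunit of complex IV, ranked 53, with 1404, 666 and 1225 normalised reads in HttQ23 and 734, 467 and 1298 in HttQ89. In both promoters replicate 2 was the lowest library of its group and the groups overlapped. NDUFAF6, also needed to assemble complex I, had 375, 191 and 250 normalised reads in HttQ23 and 153, 109 and 265 in HttQ89 at its stronger peak.

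Among the members, complex I had the strongest subunit promoters. NDUFS6, an accessory subunit of the peripheral arm (chr5:1801263-1801663), had 692, 425 and 742 normalised reads in HttQ23 and 485, 307 and 728 in HttQ89. NDUFS7, the core iron-sulfur subunit next to the quinone site (chr19:1383794-1384194), had 701, 373 and 631 in HttQ23 and 447, 260 and 630 in HttQ89. Both genes had their lowest value in HttQ89 replicate 2 and overlapping groups. Among the weaker peaks of complex I, though not the weakest, NDUFA5 and NDUFB4, accessory subunits, had under 32 normalised reads in each library at their tested peaks.

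Complex II was represented by 2 promoters of middling strength. SDHC, a membrane anchor, had 175, 92.4 and 171 normalised reads in HttQ23 and 103, 45.5 and 195 in HttQ89. SDHB, the iron-sulfur subunit, had 31.8, 30.8 and 143 in HttQ23 and 108, 25.7 and 110 in HttQ89. Its values split within each group, with HttQ23 replicate 3 well above the other HttQ23 libraries and HttQ89 replicate 2 well below the other HttQ89 libraries.

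In complex III the strongest member was the promoter of CYC1, cytochrome c1, with 378, 277 and 288 normalised reads in HttQ23 and 210, 134 and 386 in HttQ89. UQCRC1, core protein 1, had 63.6, 63.7 and 146 in HttQ23 and 117, 42.5 and 184 in HttQ89. UQCR11, an accessory subunit, had 97.6, 116 and 87.6 in HttQ23 and 11.3, 71.2 and 99.6 in HttQ89, where HttQ89 replicate 1 stood far below the other 5 libraries. CYCS itself, the carrier to complex IV, was weak, with 8.49, 30.8 and 21.0 in HttQ23 and 13.4, 29.6 and 31.7 in HttQ89.

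Complex IV ranged from strong to barely above 0. COX8A had 434, 252 and 417 normalised reads in HttQ23 and 280, 149 and 408 in HttQ89. COX5A had 318, 222 and 271 in HttQ23 and 139, 126 and 267 in HttQ89, and COX6A1 had 65.8, 38.2 and 178 in HttQ23 and 105, 79.1 and 104 in HttQ89. These are accessory subunits, and their groups overlapped. COX6C, COX7C and COX6B1, other accessory subunits of the common enzyme, and NDUFA4L2, a paralogue of NDUFA4, were at 0 in at least 1 library.

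For complex V, ATP5F1E, the epsilon subunit of the central stalk, had 265, 140 and 251 normalised reads in HttQ23 and 116, 111 and 257 in HttQ89. ATP5F1A, the alpha subunit of F1, had 197, 77.5 and 213 in HttQ23 and 133, 76.1 and 206 in HttQ89. ATP5PF, coupling factor 6 of the peripheral stalk, had 202, 96.6 and 150 in HttQ23 and 73.1, 86.0 and 148 in HttQ89. HttQ89 replicate 3 was near the HttQ23 level in all 3 promoters. ATP5IF1, the inhibitor of the ATP synthase, lay between 26.2 and 56.9 in the 6 libraries.

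Of the 9 members listed under other names, UQCRFS1-DT, the divergent transcript at the start of the Rieske protein gene of complex III, was the strongest at 243 normalised reads. It was followed by SDHAP3, a pseudogene of SDHA, at 216 and the readthrough transcript ATP5MF-PTCD1 at 182. The authors kept uniquely aligned reads, so reads that match a pseudogene and its parent equally well were not counted, and the values of SDHAP3 and UQCRBP1 are uncertain. The others were NDUFV2-AS1, NDUFB2-AS1, NDUFC2-KCTD14, NDUFV1-DT and UQCRB-AS1.

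The libraries differed in the reads that fell in peaks before any comparison, while their sequencing depth, as implied by the value of 1 read and relative to the mean of the 6, lay between 0.924 and 1.12. Recovered reads in peaks numbered 1415890 to 2089917 in HttQ23 and 927910, 1012558 and 2344649 for the HttQ89 libraries in order, and the median promoter peak was at 60.5 to 76.4 normalised reads in HttQ23 against 27.8, 41.5 and 84.2 in HttQ89. HttQ89 replicates 1 and 2 were thus low in peak signal and replicate 3 was high. Member peaks took 0.590%, 0.507% and 0.731% of all normalised reads in HttQ23 and 0.801%, 0.547% and 0.629% in HttQ89, so their share overlapped between the groups.

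To ask whether YY1 binding at these promoters differed between HttQ89 and HttQ23, log2 fold changes (HttQ89 minus HttQ23, on log2 of normalised reads + 1) were taken from a limma fit over all 14698 peaks above 0 in all 6 libraries. Of the 73 member peaks tested, 0 passed an adjusted p of 0.05 (limma, Benjamini-Hochberg) in either direction, as did 0% of all tested peaks lower and 0% higher in HttQ89. edgeR and DESeq2 on recovered reads also called 0 members. The lowest adjusted p of a member was 0.818. At an unadjusted p under 0.05, a count added after seeing the data, limma gave 0 members, against 4.02% of all tested peaks in the lower direction and 0.204% in the higher.

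Most values were negative, in members as elsewhere. The fold change was below 0 in 54 tested members (74.0%) and above 0 in 19, against 82.8% of all tested peaks below 0. The median was -0.35 in members, -0.50 in all tested peaks and -0.51 in tested promoter peaks. By complex it was -0.28 for I, -0.08 for II, -0.17 for III, -0.67 for IV and -0.52 for V, and -0.31 for assembly factors. These medians rest on 22, 2, 5, 7, 14 and 16 tested peaks, in that order. The 7 of complex IV include 2 of tissue isoforms, COX8C and COX6A2, and the 2 of complex II have opposite signs. The sign of the members' median depended on the scaling, as the median turned to 0.18 with every library centred on its own median, 0.10 with quantile normalisation, 0.13 with TMM and 0.14 with DESeq2, where that of promoter peaks was 0.03, -0.02, -0.02 and 0.01. The medians of complexes I and IV stayed on opposite sides of the promoter median under each of these scalings, at 0.26, 0.21, 0.21 and 0.19 for complex I and -0.14, -0.22, -0.19 and -0.17 for complex IV. These are descriptions with no test.

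**Figure D3:**
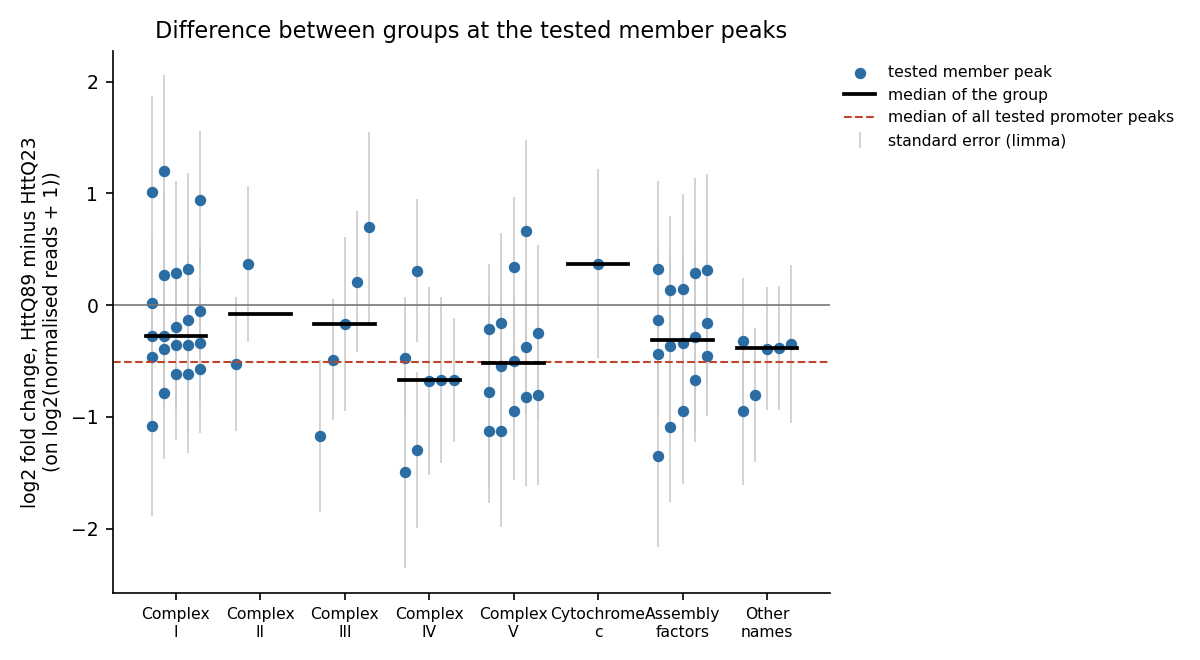
Log2 fold change (HttQ89 minus HttQ23, on log2 of normalised reads + 1) of each of the 73 tested member peaks by complex, with limma's standard error as grey bars and group medians as black bars. The dashed line is the median of all tested promoter peaks (-0.51). Points lie on both sides of 0 in complexes I to V and in the assembly factors, and the members' median turned positive under 4 other scalings.

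At 3 members the groups did not overlap, each with an exact two-sided permutation p of 0.1, the smallest that 3 against 3 libraries allow. HttQ89 lay below HttQ23 at NDUFA4 and COX4I2, against 3.95% of all promoter peaks, and above it at UQCRB-AS1, against 0.644%. These counts, 2 and 1 of 90, were near the background. NDUFA4, a subunit first assigned to complex I and now placed in complex IV (chr7:10940321-10940721, with its edge 168 bp from the TSS), had 122, 90.3 and 74.4 normalised reads in HttQ23 and 20.6, 36.6 and 69.7 in HttQ89. Its log2 fold change was -1.29 (SE 0.70, adjusted p = 0.818 by limma with Benjamini-Hochberg adjustment), the lowest unadjusted p among members. COX4I2, the lung isoform of COX4, had 22.3, 44.6 and 22.8 in HttQ23 and 0, 11.9 and 8.15 in HttQ89. UQCRB-AS1, whose peak holds the start of UQCRB of complex III, had 0, 0 and 3.50 in HttQ23 and 19.6, 8.89 and 16.3 in HttQ89, and both of these weak peaks were left out of the fit.

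The largest negative fold changes were those of COX8C (-1.49), SDHAF1 (-1.35), NDUFA4, UQCR11 (-1.17) and ATP5F1D (-1.13), which were also the 5 members with the lowest p. Single libraries carried several of them. SDHAF1, needed for iron-sulfur insertion into complex II, had 55.1, 44.6 and 44.6 normalised reads in HttQ23 and 2.06, 41.5 and 53.4 in HttQ89, so that HttQ89 replicates 2 and 3 were at the HttQ23 level, as they were in part for UQCR11. COX17, a copper chaperone of complex IV chosen after its values were seen, showed the same low value in HttQ89 replicate 1 (16.5 against 72.4 to 118 in the other libraries). COX8C, the testis isoform of COX8, had 37.1, 9.56 and 23.6 in HttQ23 and 2.06, 5.93 and 19.9 in HttQ89.

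ATP5F1D, the delta subunit of the central stalk, had 134, 106 and 124 normalised reads in HttQ23 and 29.9, 41.5 and 131 in HttQ89 at the peak over its TSS (chr19:1241660-1242060). Replicate 3 of HttQ89 was thus within the HttQ23 range and the other HttQ89 libraries below it. Without HttQ89 replicate 3 this was the only member called, with a log2 fold change of -1.75 and an adjusted p of 0.0498 (limma with Benjamini-Hochberg adjustment), while 514 of all tested peaks were called lower. With all 6 libraries, 0 were. Another member peak of ATP5F1D, further upstream (chr19:1240160-1240560), was stronger, with a mean of 115 against 94.5 normalised reads. It was not called without HttQ89 replicate 3. With all 6 libraries its log2 fold change was -0.94 and its groups overlapped. It was chosen after its values were seen.

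The largest positive fold changes were those of NDUFB4 (1.20), NDUFA5 (1.01), NDUFB5 (0.94), UQCRH (0.70) and ATP5MC1 (0.66). NDUFB5, an accessory subunit of the membrane arm of complex I, had 28.6, 59.5 and 229 normalised reads in HttQ23 and 149, 74.1 and 258 in HttQ89. NDUFB4, of the same arm, had 3.18, 17 and 7 in HttQ23 and 27.8, 12.8 and 17.2 in HttQ89, and NDUFA5 had 5.30, 6.37 and 16.6 in HttQ23 and 31.9, 10.9 and 16.3 in HttQ89. In each of them the groups overlapped. UQCRH had 7.42, 15.9 and 7.88 in HttQ23 and 21.6, 10.9 and 19.0 in HttQ89 at a weak peak beyond 1 kb from the TSS, apart from the strong one listed under LRRC41, and ATP5MC1, a gene for the rotor subunit c, had 14.8, 8.50 and 77.0 in HttQ23 and 28.8, 28.7 and 51.6 in HttQ89.

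**Figure D4:**
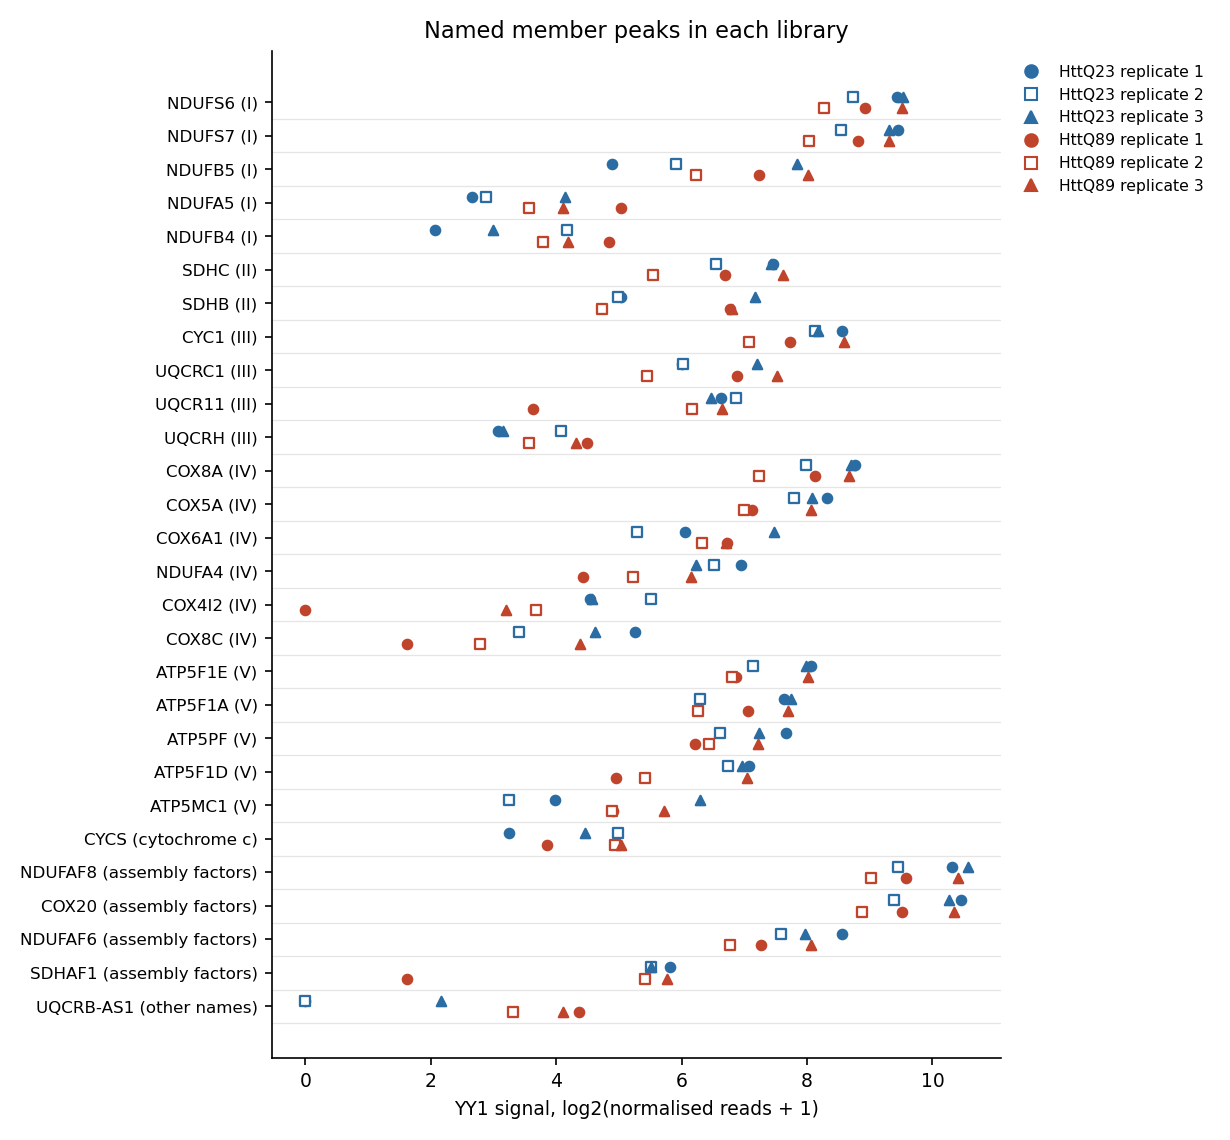
YY1 signal, as log2 of normalised reads + 1, of the named member peaks in each of the 6 libraries, with HttQ23 in blue and HttQ89 in red and a symbol for each replicate. The groups separate at NDUFA4, COX4I2 and UQCRB-AS1, where HttQ23 replicates 1 and 2 coincide at 0. In UQCR11 and SDHAF1 HttQ89 replicate 1 stands apart at 11.3 and 2.06 normalised reads.

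A total of 17 member peaks were at 0 in at least 1 library and were not tested. They were the peaks of NDUFS4, NDUFA8, NDUFB7, UQCRC2, COX4I2, COX6C, NDUFA4L2, COX7C, COX6B1, ATP5MK, ATP5PO, COX14, NDUFV1-DT, UQCRB-AS1 and UQCRBP1, and the weaker peaks of NDUFB4 and ATP5MC1. In the HttQ23 libraries 10, 7 and 2 members were at 0, and in the HttQ89 libraries 7, 1 and 1 were. The filter thus left out 5 of 12 peaks in complex IV, of which 2 were of tissue isoforms or paralogues, and 4 of 26 in complex I.

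The libraries ranked the members in another order than promoter peaks at large. HttQ89 replicate 2 was the lowest of the 6 libraries at 43 of the 73 tested members (58.9%) and at 31.9% of tested promoter peaks. HttQ89 replicate 1 was the lowest at 15 members (20.5%) but at 50.2% of promoter peaks. HttQ23 replicate 3 was the lowest at 0 members and the highest at 24, or 32.9%, against 14.5% of promoter peaks. Relative to the mean of HttQ23, the median log2 shift of HttQ89 replicates 1 to 3 was -0.39, -0.99 and 0.31 in members and -0.92, -0.75 and 0.29 in promoter peaks. The members were therefore less reduced than other promoters in one HttQ89 library, more reduced in another and raised to a like extent in the third. Promoter peaks with the YY1 core, at -0.57, -0.83 and 0.32, lay between them in HttQ89 replicates 1 and 2.

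**Figure D5:**
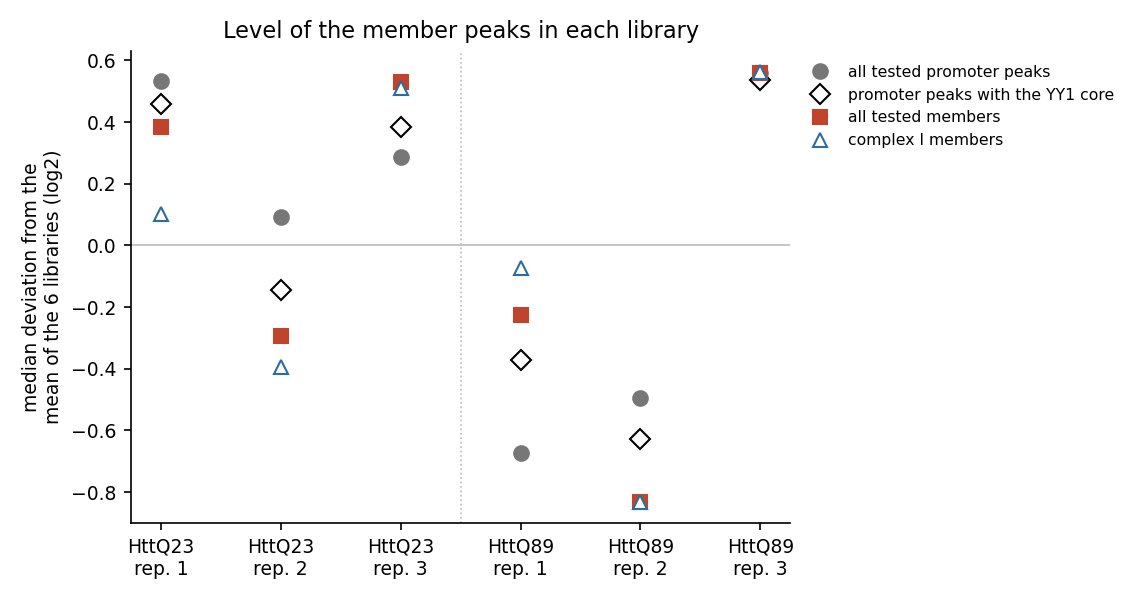
Median deviation of each library from the mean of the 6 libraries (log2 of normalised reads + 1) for all tested promoter peaks (grey), promoter peaks with the YY1 core (diamonds), all tested members (red) and complex I members (blue triangles). In HttQ89 replicate 1 members stood at -0.23 and promoter peaks at -0.67, and in HttQ89 replicate 2 at -0.83 and -0.49.

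In peak signal the 6 libraries were thus not alike within a group, and the members' median moved with the library left out. It lay between -0.60 and -0.29 without 1 of the HttQ23 libraries, and at -0.35, -0.02 and -0.69 without HttQ89 replicate 1, 2 or 3, where the median of tested promoter peaks was -0.25, -0.35 and -0.88. Without HttQ89 replicate 1 the members, and complex I at -0.32, thus lay below the promoter peaks, and with each of the other libraries left out in turn the members lay above them. The medians of complexes I, II and III turned positive without HttQ23 replicate 3 (0.07, 0.35 and 0.40) and without HttQ89 replicate 2 (0.16, 0.53 and 0.23), as did that of the assembly factors in the latter case (0.028).

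Related genes outside the symbol rule were read in the same fit. Only peaks listed under their own symbols were counted, so a peak listed under a neighbouring gene did not enter. Of 38 assembly factors with other names, 20 had a listed promoter peak and 18 were tested, of which 0 passed in either direction, with 10 fold changes below 0 and 8 above and a median of -0.11. SURF1, an assembly factor of complex IV, was the strongest, with 723, 477 and 464 normalised reads in HttQ23 and 310, 280 and 526 in HttQ89. TACO1, a translational activator of the COX1 subunit, was the only one whose groups did not overlap. It had 124, 115 and 113 in HttQ23 and 36, 58.3 and 88.7 in HttQ89. This count, 1 of 20, was near the 3.95% of all promoter peaks with HttQ89 below. The adjusted p of TACO1 was 0.818 (limma, Benjamini-Hochberg). SURF1 and TACO1 were chosen after their values were seen.

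Of 18 regulators of respiratory genes, 13 had a promoter peak listed under their own symbol and 12 were tested. Of these 0 passed, with 9 fold changes below 0, 3 above and a median of -0.21. YY1's own promoter had 1231, 660 and 616 normalised reads in HttQ23 and 1210, 440 and 805 in HttQ89, and the promoter of NRF1 had 608, 297 and 389 in HttQ23 and 339, 242 and 413 in HttQ89. TFAM, the mitochondrial transcription factor, was weaker, with 58.3, 38.2 and 131 in HttQ23 and 46.3, 56.3 and 112 in HttQ89. At all 13 regulators the groups overlapped, and these 3 were chosen after their values were seen.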

How the data were processed

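The submitters' processing notes and the methods of the study name Cutadapt 3.7 for trimming paired reads of 150 nt, Bowtie2 2.4.1 for alignment to GRCh38.p14, Sambamba 1.0.1 for keeping reads with a unique alignment, BEDTools 2.29.2 for removing blacklisted regions, MACS3 3.0.1 for calling peaks against input, and ChIPseeker 1.38.0 for annotation. The notes do not say if libraries were pooled for peak calling. The authors deposited a normalised signal made with DiffBind, that is, reads per peak scaled to sequencing depth. This scaling keeps differences in immunoprecipitation yield. Values were whole multiples of 1 step per library (100% within 0.1 reads), and reads were recovered by dividing by that step for edgeR 4.0.16 and DESeq2 1.42.0.

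Members and lists were chosen with earlier results of these data known. Peaks above 0 in all 6 libraries (63.9%) were tested with limma 3.58.1 (lmFit, eBayes with a trend, two-sided) on log2(value + 1) in R 4.3.3, and p-values were adjusted over all of them by the Benjamini-Hochberg method. limma found no variance beyond the trend, so its standard errors follow peak strength. Exact permutation tests compared 3 with 3 values. Transcript starts and start codons came from GENCODE release 44, in which all 23002 transcripts were found, and sequences from GRCh38.

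The genes named with values were the 3 strongest peaks of each complex, of cytochrome c and of the assembly factors, members without overlap between groups, the 5 lowest p, the 5 largest fold changes in each direction, and, by name, members at 0 or under other names. One gene that this rule names is not reported here. Others are marked in the text. Alternatives were 2 other filters, a pseudocount of 5, 3 scalings, edgeR, DESeq2, limma without a trend, a replicate block, each library left out, the strongest peak per gene, and the central 201 bp for motifs.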

Additional observations from a re-analysis of the deposited data

How the results depend on the processing

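With 3 libraries per group, limma's variance followed peak strength. A member of middling strength had a standard error of about 0.70 on the log2 scale, as at NDUFA4. At that peak a log2 fold change of -1.29 had an adjusted p of 0.818 (limma, Benjamini-Hochberg). Differences of the size of the standard error were thus not detectable, and the absence of calls does not exclude larger ones. The count of 0 members held under the other filters, the pseudocount of 5, the scalings, edgeR, DESeq2 and limma with no trend. Leaving out 1 library gave 0 to 1 members called lower and 0 to 514 of all peaks called lower, both highest without HttQ89 replicate 3, where ATP5F1D was called. The correlations of deviations of same-numbered libraries were 0.0414, 0.386 and 0.146. Those between libraries of different numbers ran from -0.290 to 0.129. These ranges overlapped, so it was not settled whether replicate numbers pair the libraries. With the replicate number as a block, 1 of all peaks and 0 members were called lower. In the central part of the peaks, where fewer bases are searched, the YY1 core was found in 25.6% of members and 17.8% of all promoter peaks. The NRF1 core was found there in 4.44% of members (4 of 90 peaks) and 1.25% of all promoter peaks. The median of assembly factors moved to 0.23 with centring, 0.16 with TMM and 0.15 with DESeq2. No named peak was called with all 6 libraries, and 56 values of named peaks changed sign under another setting. With libraries centred on their medians, the log2 fold change turned positive for NDUFS6 (0.20), NDUFS7 (0.15), SDHC (0.011), CYC1 (0.051), COX8A (0.067), ATP5F1E (0.041), ATP5F1A (0.32), ATP5IF1 (0.29), NDUFAF8 (0.098), COX20 (0.083), UQCRFS1-DT (0.15), SDHAP3 (0.16), ATP5MF-PTCD1 (0.22) and NDUFC2-KCTD14 (0.19). With quantile normalisation, the log2 fold change turned positive for NDUFS6 (0.11), NDUFS7 (0.0305), ATP5F1A (0.26), ATP5IF1 (0.23), UQCRFS1-DT (0.043), SDHAP3 (0.10), ATP5MF-PTCD1 (0.12) and NDUFC2-KCTD14 (0.14). With TMM, the log2 fold change turned positive for NDUFS6 (0.16), NDUFS7 (0.11), CYC1 (0.0077), COX8A (0.025), ATP5F1A (0.28), ATP5IF1 (0.24), NDUFAF8 (0.057), COX20 (0.042), UQCRFS1-DT (0.11), SDHAP3 (0.11), ATP5MF-PTCD1 (0.17) and NDUFC2-KCTD14 (0.14). With DESeq2 on recovered reads, the log2 fold change turned positive for NDUFS6 (0.19), NDUFS7 (0.15), SDHC (0.051), CYC1 (0.056), COX8A (0.086), ATP5F1A (0.25), ATP5IF1 (0.38), NDUFAF8 (0.046), COX20 (0.058), UQCRFS1-DT (0.091), SDHAP3 (0.11), ATP5MF-PTCD1 (0.25) and NDUFC2-KCTD14 (0.20). Leaving out 1 library at a time, values of opposite sign to that with all 6 libraries appeared for SDHC (-1.02 to 0.013), UQCRC1 (-0.25 to 0.80), COX6A1 (-0.18 to 0.91), ATP5F1A (-0.68 to 0.16), ATP5IF1 (-0.46 to 0.012), CYCS (-0.12 to 0.75), UQCRFS1-DT (-0.68 to 0.0004) and ATP5MF-PTCD1 (-0.60 to 0.12). The range was -1.75 to -0.70 for ATP5F1D. The cause of these changes was not tested beyond the construction of each scaling, which removes a shift shared by all peaks.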
